A study of Mus musculus with 25 samples.

Results

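The genes described here encode the subunits of the ion channels that GABA, glycine and glutamate open. They were chosen by symbol: the GABA-A alpha, beta, gamma, delta, epsilon, theta, pi and rho subunits, the glycine receptor subunits, and the AMPA, kainate, NMDA and delta glutamate receptor subunits, with a mean normalized count of at least 10. Of 24421 genes in the authors' deposited tables, 42 symbols matched, and 38 reached that mean in at least 1 table. These 38 comprised 20 inhibitory genes (6 GABA-A alpha, 3 beta, 3 gamma, delta, epsilon and theta, 1 rho and 4 glycine receptor genes) and 18 excitatory genes (4 AMPA, 5 kainate, 7 NMDA and 2 delta receptor genes). Of the 38, 37 reached the minimum in all 4 authors' deposited tables. Gabra6 did so in the authors' deposited tables of males only, where its means were 20.4 and 14.8, against 2.26 and 1.24 in females. Gabrp, Gabrr1, Gabrr3 and Glra4 stayed below it in every table. The nearest value inside was the mean of 11.6 for Gabre in HCD-weaned females, and the nearest outside was that of 8.38 for Glra4 in HCD-weaned males, in the authors' deposited tables.

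RNA was taken from the hypothalamus of wild-type C57BL/6J mice at 3 months of age and made into libraries with a stranded mRNA kit. Dams ate regular chow (RD) or a hypercaloric, sucrose-rich diet with 52% fat (HCD) for 1 month before mating and on through pregnancy and lactation, and the pups went onto either diet at weaning. The labels give the maternal diet first: HCD-HCD, RD-HCD, HCD-RD and RD-RD, each in males and females, with 25 samples in all: 4 of RD-RD males, and 3 for each of 7 further groups. The 4 comparisons ask how offspring of HCD dams differ from offspring of RD dams within 1 sex and 1 weaning diet. They share no samples. They are called HCD-weaned males, HCD-weaned females, RD-weaned males and RD-weaned females below. Positive log2 fold changes are taken to mean a higher level in offspring of HCD dams. The labels give the words control and comparison for the HCD-weaned groups only, so for RD-weaned offspring the same order was assumed. If that is wrong for a table, all its signs turn.

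The values of single libraries carry running numbers that match no label, so every value below is one of the authors' table values, a mean over both groups of a comparison or a fold change, and no value per sample can be given. Errors written after ± are the standard errors of the authors' deposited tables. Whether the samples within a group had separate dams is not stated in the labels, so what the p-values measure is spread between these samples. The mean normalized counts summed to 15402649 to 26951335 over the genes of a deposited table. A subunit gene was called changed where the authors' DESeq Wald test gave it an adjusted p under 0.05, with Benjamini-Hochberg adjustment over the table. By markers, 13 to 17 of 18 genes of hypothalamic neurons had a mean of at least 10, with a summed level of 355 to 853 normalized CPM (mean normalized counts as CPM of the table's sum). Genes of cortex and hippocampus (11 of 11, 1032 to 1822 CPM), striatum (10 of 10, 1149 to 2103) and thalamus (9 of 9, 743 to 1257) were measured in the same tables, and no marker of these lists was listed at 0.

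GABA-A and glycine receptors are chloride channels, and most GABA-A receptors at synapses join alpha, beta and gamma subunits, whereas the delta subunit serves receptors outside synapses. AMPA, kainate and NMDA receptors are cation channels, and AMPA receptors carry most fast excitation while NMDA receptors admit calcium. In the hypothalamus GABA and glutamate are the main fast transmitters of the neurons that govern feeding, energy use and hormone release. The tissue was measured in bulk, so fewer cells of a type and less RNA per cell cannot be told apart.

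By the authors' DESeq Wald test 1 of 38 subunit genes tested was called in HCD-weaned males (beside 0.163% of all genes), 1 of 37 in HCD-weaned females (1.52%), and none of 34 in RD-weaned males (0.0851%) or in RD-weaned females (0.346%). Gabra2, which encodes the alpha2 subunit of synaptic GABA-A receptors, fell in HCD-weaned females of HCD dams, and Gabra6, which encodes the alpha6 subunit best known from cerebellar granule cells, rose in HCD-weaned males of HCD dams. The 250 bases upstream of the annotated start of these 2 genes, from RefSeq on GRCm38.p6, are shown because no other subunit gene was called. Both genes lie on the minus strand, and the windows are chr5:71095850-71096099 and chr11:42321073-42321322. Capitals mark the motif matches found, a GC box in the first and a partial nuclear factor I (NFI) site in the second.
Gabra2: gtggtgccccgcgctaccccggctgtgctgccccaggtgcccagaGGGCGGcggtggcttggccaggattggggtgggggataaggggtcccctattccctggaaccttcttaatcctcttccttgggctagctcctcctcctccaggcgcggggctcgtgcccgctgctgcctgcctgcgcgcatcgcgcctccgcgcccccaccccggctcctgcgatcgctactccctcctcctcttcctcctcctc
Gabra6: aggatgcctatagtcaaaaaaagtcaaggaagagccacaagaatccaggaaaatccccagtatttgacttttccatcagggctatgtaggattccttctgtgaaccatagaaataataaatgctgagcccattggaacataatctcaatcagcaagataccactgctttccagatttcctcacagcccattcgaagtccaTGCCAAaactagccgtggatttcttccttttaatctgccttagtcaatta
The Gabra2 window held 70% G and C and 18 CpG, and 90.8% of 32851 mouse promoters had a lower GC content. The Gabra6 window held 40.8% G and C and 2 CpG, and 13.3% of promoters had a lower GC content. The median promoter had 52.4% and 6 CpG. Both strands were searched for 5 motifs. They were the GC box GGGCGG (in 32.7% of all promoters of this length), the TATA box TATAAA (12.4%) and the E-box CACGTG (6.02%). The cAMP response element TGACGTCA (1.55%) and the partial NFI site TGCCAA (12.3%) were the others. The GC box in Gabra2 begins 205 bases, and the partial NFI site in Gabra6 50 bases, upstream of the start. The remaining motifs had no match in these 2 windows, which says only that these letters are not there. Promoter entries were found for 29 of the 42 symbols.

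Gabra2 spans 138.3 kb of chromosome 5 (70957597 to 71095849, GRCm38, minus strand). Its mean level in the authors' deposited tables was 26.7 and 17.0 normalized CPM in HCD-weaned males and females, and 23.1 and 29.8 in RD-weaned males and females. In HCD-weaned females the authors' deposited table gave a log2 fold change of -1.57 ± 0.35, a 2.97-fold lower level (95% interval of the log2 value -2.25 to -0.88, adjusted p = 0.00283 by the DESeq Wald test). Among all 15043 genes tested there, 1.52% were called. In HCD-weaned males the authors' deposited table gave -0.85 ± 0.30 (adjusted p = 0.382). For RD-weaned offspring the values in the authors' deposited tables were 0.35 ± 0.41 in males and 0.32 ± 0.28 in females (adjusted p = 1.00 in both). Gabra2 was thus below 0 in both comparisons of HCD-weaned offspring and above 0 in both of RD-weaned offspring. The difference between HCD-weaned and RD-weaned females was -1.89 ± 0.45, with an adjusted p of 0.0742 over all genes that both of the authors' deposited tables test, so it did not pass. No other subunit gene had so small a p in any of the 4 pairs of comparisons tested. With the smooth trend in transcript length and GC content removed, the Gabra2 value from the authors' deposited table of HCD-weaned females was -1.33, and its adjusted p was 0.0394.

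Gabra6 spans 14.6 kb of chromosome 11 (42306437 to 42321072, GRCm38, minus strand). Its level was low, at 0.755 normalized CPM in HCD-weaned males and 0.959 CPM in RD-weaned males in the authors' deposited tables. The log2 fold change in the authors' deposited table of HCD-weaned males was 1.25 ± 0.31, a 2.38-fold higher level (95% interval of the log2 value 0.64 to 1.87, adjusted p = 0.0393 by the DESeq Wald test). Among all 15384 genes tested there, 0.163% were called. In RD-weaned males the authors' deposited table gave -0.22 ± 0.24 with no p-value. The call was lost when the authors' Wald statistics were divided by their robust spread over all genes, which gave an adjusted p of 0.382. Gabra6 is itself 1 of 8 fixed markers of cerebellum, of which 7 were above 0 in HCD-weaned males (median 0.24) and none but Gabra6 was called. Among these the authors' deposited table gave 0.71 ± 0.32 (adjusted p = 0.556) for Cbln3, a protein of cerebellar granule cells, and 0.35 ± 0.32 (adjusted p = 0.801) for Pcp2, a Purkinje cell protein. The summed level of the list was 493 to 630 CPM over the 4 tables. That sum was highest in HCD-weaned females, where Gabra6 had a mean normalized count of only 2.26. The part of the list in the Gabra6 result was not tested.

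In HCD-weaned males 18 of the 20 inhibitory and 13 of the 18 excitatory genes had log2 fold changes below 0 in the authors' deposited table. The medians were -0.33 for inhibitory and -0.31 for excitatory genes, against -0.01 over all genes tested, of which 51.1% were below 0. At an unadjusted p under 0.05 there were 2 higher and 9 lower subunit genes of 38, where the background was 8.14% of all genes. After Gabra6 the largest Wald statistics of inhibitory genes in the authors' deposited table were those of Gabrq (theta subunit) at -1.05 ± 0.29 (adjusted p = 0.124), Gabre (epsilon subunit) at -1.15 ± 0.32 (adjusted p = 0.129) and Gabra2. Both Gabrq and Gabre encode less common subunits that take part in receptors of hypothalamic and brainstem nuclei. On the excitatory side the authors' deposited table gave -0.95 ± 0.30 (adjusted p = 0.266) for Grin2b, which encodes the NMDA receptor subunit GluN2B, and -0.83 ± 0.32 (adjusted p = 0.477) for Grin2a, which encodes GluN2A. Grin3b, which encodes the glycine-binding subunit GluN3B, had 0.87 ± 0.32 (adjusted p = 0.432), at a level of 0.753 CPM in the authors' deposited table. Grin3b shares 1059 of its 3296 annotated exon bases with Tmem259 on the opposite strand, and the use of strand in counting is not given in the sources used here. For Gria2, which encodes the AMPA receptor subunit that limits calcium entry, the authors' deposited table gave -0.71 ± 0.30 (adjusted p = 0.523). Beside these values, 16 of 17 measured markers of hypothalamic neurons were below 0 in the same table (median -0.93), and 5 of them were called lower (Sim1, Fezf1, Pmch, Hcrt and Oxt). All 10 striatum markers were below 0 too (median -0.63). All 6 habenula markers were above 0 (median 0.70), of which Chrnb4 was called higher, and 6 of 9 ependymal markers were (median 0.27). The other marker lists had medians from -0.36 (endothelial and mural) to 0.24 (cerebellum), and the part of any list in the subunit values was not tested.

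**Figure D1:**
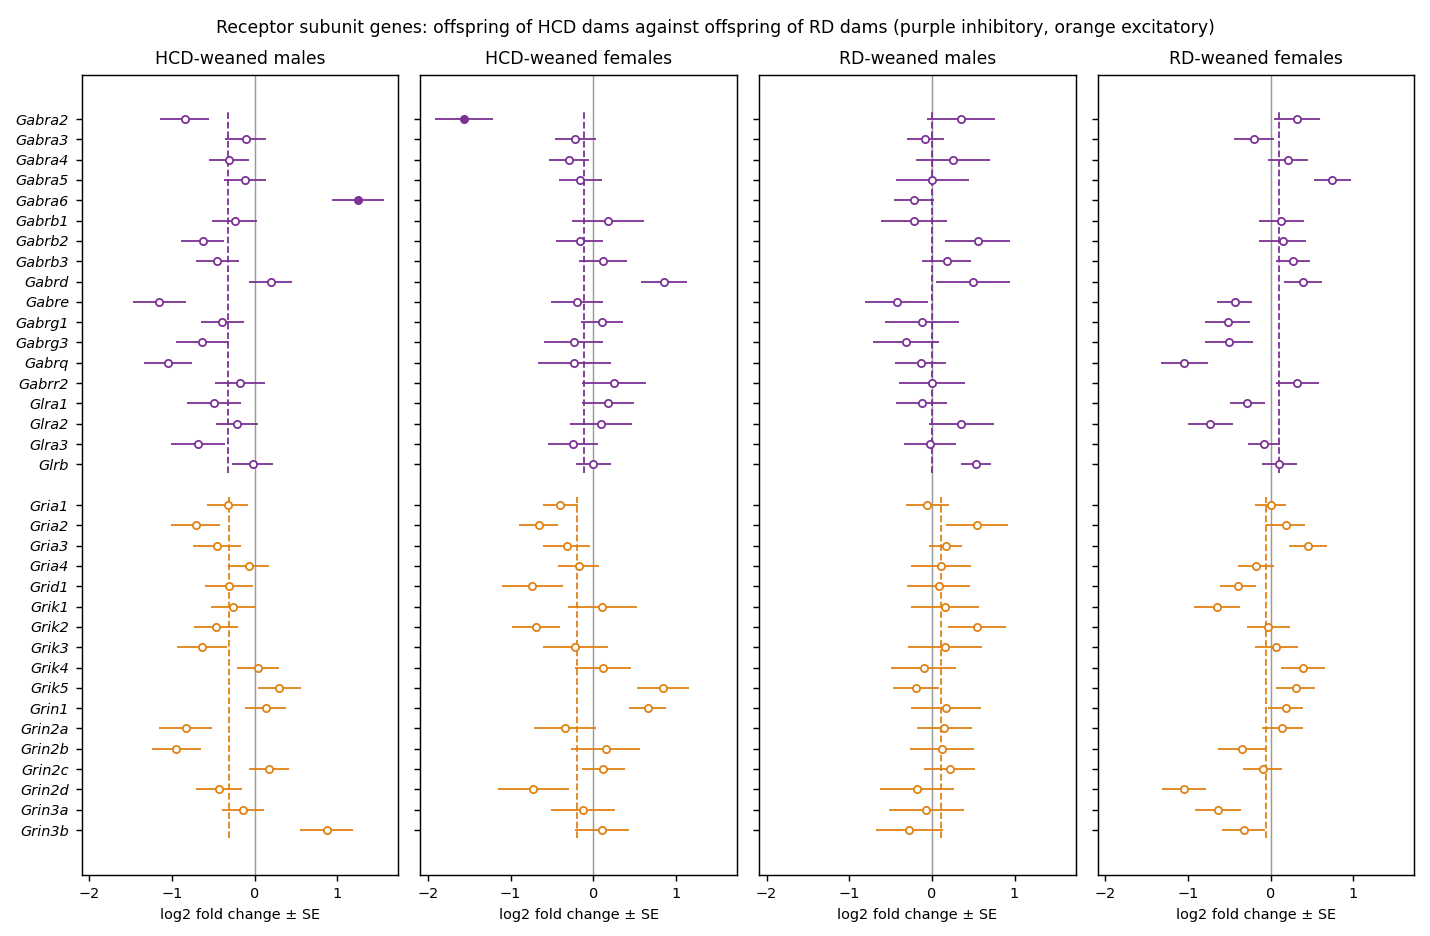
Log2 fold changes (offspring of HCD dams against offspring of RD dams, horizontal axis) of 18 inhibitory (purple) and 17 excitatory (orange) subunit genes in the authors' 4 deposited tables, with bars of 1 standard error, filled points for genes called at an adjusted p under 0.05, and dashed lines at the medians of the 20 inhibitory and 18 excitatory genes. The 2 filled points are Gabra6 in HCD-weaned males (1.25) and Gabra2 in HCD-weaned females (-1.57).

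In HCD-weaned females the values spread to both sides. Of the authors' deposited values 10 of 19 inhibitory and 11 of 18 excitatory genes were below 0, with medians of -0.11 and -0.20 against 0.04 over all genes tested, of which 45.6% were below 0. At an unadjusted p under 0.05 there were 3 higher and 4 lower of 37, beside 13.3% of all genes. Gabrd, which encodes the delta subunit of extrasynaptic GABA-A receptors, stood at 0.85 ± 0.28 (adjusted p = 0.0900 by the authors' DESeq Wald test), and it would pass only at a threshold of 0.10. The authors' deposited table gave 0.66 ± 0.22 (adjusted p = 0.102) for Grin1, the obligatory NMDA receptor subunit gene, and 0.85 ± 0.32 (adjusted p = 0.156) for Grik5, which encodes the kainate receptor subunit GluK5. Lower values in the authors' deposited table were those of Gria2 at -0.66 ± 0.24 (adjusted p = 0.129) and of Grik2, which encodes the kainate receptor subunit GluK2, at -0.69 ± 0.29 (adjusted p = 0.234). The AMPA receptor genes all lay below 0 in this table, from -0.66 (Gria2) to -0.18 (Gria4). All 5 measured alpha subunit genes were below 0 as well, though 4 of them lay between -0.29 and -0.11. Grin1 shares 1307 of 9700 annotated exon bases with the antisense gene Grin1os. Of the hypothalamic neuron markers 9 of 14 were below 0 (median -0.14) and of the striatum markers 9 of 10 were above 0 (median 0.28). The other marker lists had medians from -0.34 (habenula) to 0.35 (microglia), and the part of any list was not tested.

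In RD-weaned males none of the 34 subunit genes tested was called by the authors' DESeq Wald test, beside 0.0851% of 12920 genes. At an unadjusted p under 0.05 there was 1 of 34, beside 4.30% of all genes. This was Glrb, which encodes the beta subunit that anchors glycine receptors to gephyrin, for which the authors' deposited table gave 0.53 ± 0.18 (adjusted p = 0.454). Among inhibitory genes the authors' deposited table also gave 0.55 ± 0.39 for Gabrb2 (beta2) and -0.43 ± 0.38 for Gabre, each with an adjusted p of 1.00. The excitatory genes with the largest statistics in the authors' deposited table were Grik2 at 0.54 ± 0.35, Gria2 at 0.55 ± 0.38, Gria3 at 0.16 ± 0.20 and Grin2c (GluN2C) at 0.22 ± 0.31. Excitatory genes ran from -0.27 (Grin3b) to 0.55 (Gria2), and 7 of 18 were below 0, as were 10 of 20 inhibitory genes and 50.0% of all genes. Medians in the authors' deposited table were 0.00 for the 20 inhibitory genes, 0.12 for excitatory genes and 0.00 for all genes tested. Over the 16 inhibitory genes with an adjusted p the median was 0.09, and 7 of them were below 0. Gabra3, Gabra4, Gabra6 and Glra1 carried no p-value in this table. All 9 thalamus markers were above 0 here (median 0.44) and 11 of 13 hypothalamic neuron markers below 0 (median -0.17). The other marker lists had medians from -0.24 (astrocyte) to 0.30 (habenula), and the part of any list was not tested.

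In RD-weaned females the authors' DESeq Wald test called none of 34 subunit genes tested, beside 0.346% of 15028 genes. At an unadjusted p under 0.05 there were 2 higher and 5 lower, beside 6.16% of all genes. The authors' deposited table gave -1.04 ± 0.29 (adjusted p = 0.0645) for Gabrq, near its -1.05 in HCD-weaned males. It gave, in the authors' deposited values, 0.75 ± 0.23 (adjusted p = 0.127) for Gabra5, whose alpha5 subunit is known for its abundance in the hippocampus, and -0.73 ± 0.27 (adjusted p = 0.399) for Glra2, which encodes the alpha2 subunit of glycine receptors. Gabre had -0.43 ± 0.21 (adjusted p = 0.764 by the authors' DESeq Wald test). On the excitatory side the largest statistic in the authors' deposited table was that of Grin2d, which encodes GluN2D, at -1.04 ± 0.27, for which no p-value is given. Next came Grin3a (GluN3A) at -0.64 ± 0.27 (adjusted p = 0.622), Grik1 (GluK1) at -0.65 ± 0.28 (adjusted p = 0.631) and Gria3 (GluA3) at 0.45 ± 0.23 (adjusted p = 0.793) by the authors' DESeq Wald test. Gria1 at 0.00 ± 0.19 and Glra3 at -0.08 ± 0.20 had no p-value either. Grin2d shares 643 of 6658 annotated exon bases with an antisense gene. Medians were 0.10 for inhibitory and -0.06 for excitatory genes, against 0.01 for all genes, and 8 of 19 and 10 of 18 were below 0, beside 49.1% of all genes, in the authors' deposited table. Markers of cortex and hippocampus (10 of 11) and of striatum (10 of 10) were above 0 here, with medians of 0.84 and 0.39, while all 9 thalamus markers, all 6 habenula markers and 15 of 17 hypothalamic neuron markers were below 0, with medians of -0.43, -0.68 and -0.30. The other marker lists had medians from -0.42 (cerebellum) to 0.35 (microglia), and the part of any list in the subunit values was not tested.

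**Figure D2:**
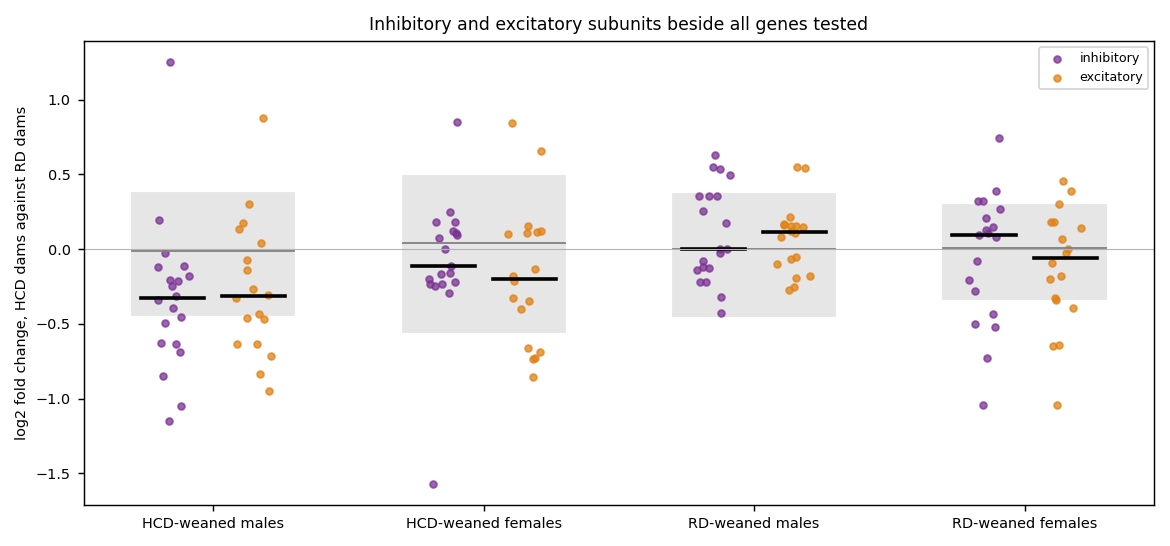
Log2 fold change of each subunit gene (points, vertical axis) in the 4 deposited tables, inhibitory in purple and excitatory in orange, with black bars at the group medians, grey bands from the 10th to the 90th percentile of all genes tested and grey lines at their median. In HCD-weaned males both medians (-0.33 and -0.31) lie below the median of all genes (-0.01), and in the other 3 tables each median lies within 0.24 of it.

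Inhibitory and excitatory medians were set side by side within each comparison, with no test. They lay 0.01 apart in HCD-weaned males, 0.09 apart in HCD-weaned females and 0.16 apart in RD-weaned females. The excitatory median was the lower in both sets of females. In HCD-weaned females this order turned once the smooth trend in transcript length and GC content was removed (excitatory 0.065, inhibitory 0.0441). In RD-weaned males the medians lay 0.11 apart, with the inhibitory median the lower. That inhibitory median includes genes without an adjusted p. Over the 16 inhibitory genes that had an adjusted p it was 0.09, against 0.12 for the excitatory genes. Among the alternatives run, the inhibitory median of RD-weaned males reached 0.30, above the excitatory range of 0.08 to 0.12. By class, the genes below 0 in the authors' deposited table of HCD-weaned males were 5 of 6 GABA-A alpha (median -0.21), 3 of 3 beta (-0.45), 3 of 3 gamma (-0.39), 4 of 4 glycine (-0.35), 4 of 4 AMPA (-0.39), 3 of 5 kainate (-0.27), 4 of 7 NMDA (-0.14) and 2 of 2 delta glutamate receptor genes. With the smooth trend in transcript length and GC content removed, 16 of 20 inhibitory and 10 of 18 excitatory genes were below 0, and the medians moved from -0.33 to -0.17 and from -0.31 to -0.12. Gabrb1 (0.27), Glrb (0.03) and Gria4 (0.16) were then above 0, and the medians were -0.18 for beta, -0.11 for gamma, -0.22 for glycine and -0.16 for AMPA genes, and 0.01 for kainate and 0.14 for NMDA genes.

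Genes that lie together in the genome were compared, since most GABA-A receptor genes stand in 4 clusters. On the X chromosome Gabre, Gabra3 and Gabrq were below 0 in all 4 authors' deposited tables. The share of all genes below 0 in all 4 was not counted. Gabre had -1.15, -0.20, -0.43 and -0.43, Gabrq -1.05, -0.23, -0.14 and -1.04, and Gabra3 -0.11, -0.22, -0.08 and -0.20, in the order of males then females, HCD-weaned first. None of these was called, and the Gabra3 values are each smaller than their standard errors of 0.22 to 0.25. In the chromosome 5 cluster the fall of Gabra2 in HCD-weaned females stood beside 0.11 ± 0.26 for Gabrg1, -0.29 ± 0.25 for Gabra4 and 0.18 ± 0.43 for Gabrb1 in the same authors' deposited table. In the chromosome 11 cluster the rise of Gabra6 in HCD-weaned males stood beside -0.63 ± 0.26 for Gabrb2, with an adjusted p of 0.523 by the authors' DESeq Wald test. None of Gabrg1, Gabra4, Gabrb1 and Gabrb2 was called in these tables.

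**Figure D3:**
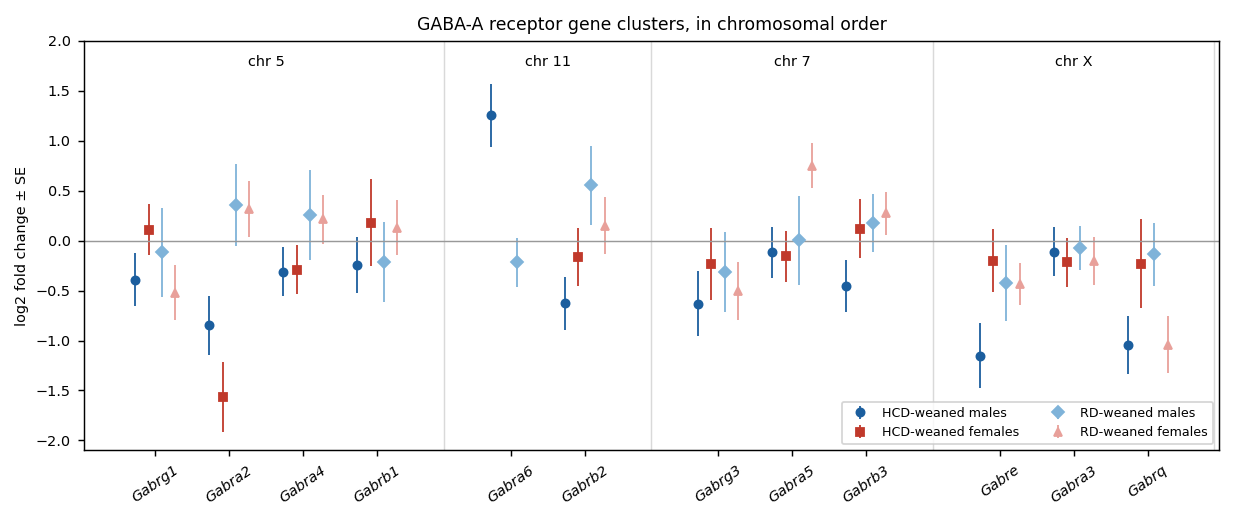
Log2 fold changes ± 1 standard error (vertical axis) of 12 GABA-A receptor genes in 4 chromosomal clusters, in chromosomal order, with 1 symbol for each deposited table. The 3 genes of the X cluster are below 0 in all 4 tables, and Gabra2 and Gabra6 stand apart from the plotted genes beside them in HCD-weaned females (-1.57) and HCD-weaned males (1.25).

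In all 4 tables together, 37 genes could be compared. Gabra3, Gabre, Gabrg3, Gabrq, Glra3, Grin2d and Grin3a were below 0 in all 4 authors' deposited tables, and Gabrd and Grin1 were above 0 in all 4. Gabrd had 0.19, 0.85, 0.50 and 0.39, and Grin1 had 0.13, 0.66, 0.17 and 0.18. None of these values was called, and the statement assumes the same reading of direction in each table. The share of all genes with the same sign in all 4 tables was not counted. These genes are therefore not set against a background. Between HCD-weaned males and females 27 of 37 subunit genes had the same sign (73.0%), beside 72.8% of 14947 genes tested in both tables, with Pearson's r of 0.53 over the subunit genes and 0.64 over all. Between RD-weaned males and females 25 of 37 did (67.6%), beside 52.1% of 12636 genes. These shares are descriptions over genes, which are not independent replicates.

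Differences between comparisons were tested for each gene. No subunit gene passed in any of the 4 pairs by the normal test of the difference with Benjamini-Hochberg adjustment. Of all genes, 0.00% passed between the sexes of HCD-weaned offspring, 0.00791% between those of RD-weaned offspring, 0.00775% between weaning diets in males and 0.00685% in females. At an unadjusted p under 0.05 there were 2 of 37 between the sexes of HCD-weaned offspring (beside 0.642% of all genes), 2 of 31 between the sexes of RD-weaned offspring (3.05%), 8 of 34 between HCD-weaned and RD-weaned males (3.84%) and 4 of 34 between HCD-weaned and RD-weaned females (5.00%). Between the sexes of HCD-weaned offspring these were Gabre (-0.95 ± 0.45, males minus females) and Grin2b (-1.10 ± 0.51), both with an adjusted p of 1.00 from the authors' values. Between HCD-weaned and RD-weaned males the difference of the authors' values was -1.26 ± 0.48 for Gria2, which had the smallest p, and -1.20 ± 0.51 for Gabra2 (adjusted p = 0.978 for both). Between HCD-weaned and RD-weaned females the difference of the authors' values was -0.84 ± 0.33 for Gria2 (adjusted p = 0.831) and -0.90 ± 0.34 for Gabra5 (adjusted p = 0.825). In both sexes the log2 fold changes of Gabra2 and Gria2 were thus lower in the HCD-weaned than in the RD-weaned comparison, without passing the adjusted test. This order stayed once the smooth trend in transcript length and GC content was removed, but Gria2 lay nearer to 0 in HCD-weaned offspring. Gria2 then had -0.20 and -0.25 in HCD-weaned males and females, and 0.37 and 0.30 in RD-weaned males and females. Gabra2 had -0.52, -1.33, 0.19 and 0.35 in the same order.

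Levels were compared between genes as normalized CPM per kilobase of transcript. Among inhibitory genes Glrb was highest, at 58.1 to 80.6 over the 4 authors' deposited tables. Gabrd (36.7 to 50.0), Gabra4 (34.2 to 40.1) and Gabrb2 (26.5 to 44.4) were among the next. Per kilobase of coding sequence Glrb ranked 2 among inhibitory genes in all 4 tables. Gabra6 (0.0213 to 0.389), Gabrg3 (0.117 to 0.301) and Gabre (0.119 to 0.439) stood at the low end in the authors' deposited tables. Gabrb2 held 55.5% to 65.9% of the beta subunit sum and Glrb 87.5% to 90.2% of the glycine receptor sum. Gabra2, the gene that fell in HCD-weaned females, held 2.37% to 3.38% of the alpha sum.

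Among excitatory genes Grin1 (66.6 to 81.0) and Gria1 (63.4 to 75.3), which encodes the AMPA receptor subunit GluA1, were highest per kilobase in the authors' deposited tables. Gria1 ranked above Grin1 in RD-weaned females, and per kilobase of coding sequence in all 4 tables. Grik5 followed at 38.3 to 42.5. Below it lay Gria2 at 13.9 to 20.3 and Gria4, which encodes GluA4, at 14.8 to 18.8. Gria4 was above Gria2 in HCD-weaned females and RD-weaned males. Per kilobase of coding sequence Gria2 (54.5 to 79.7) stood above Grik5 (53.0 to 58.8) except in HCD-weaned females. Grin1 held 77.5% to 79.3% of the NMDA receptor sum, Gria1 57.5% to 61.2% of the AMPA receptor sum and Grik5 69.9% to 75.3% of the kainate receptor sum. Among GluN2 genes Grin2c had the highest level, at 11.7 to 12.6. Grin2a (0.146 to 0.191), Grin3b (0.180 to 0.452) and Grin2b (0.257 to 0.380) were lowest. The Grin2b transcript used is 24060 nt long, and per kilobase of coding sequence its level was 1.39 or more. The ratio of the inhibitory to the excitatory sum per kilobase was 1.42 and 1.25 in HCD-weaned males and females and 1.30 and 1.39 in RD-weaned males and females, from the authors' deposited means, and 1.72 to 1.92 per kilobase of coding sequence. The tables were normalized separately, so these levels are set side by side with no test.

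**Figure D4:**
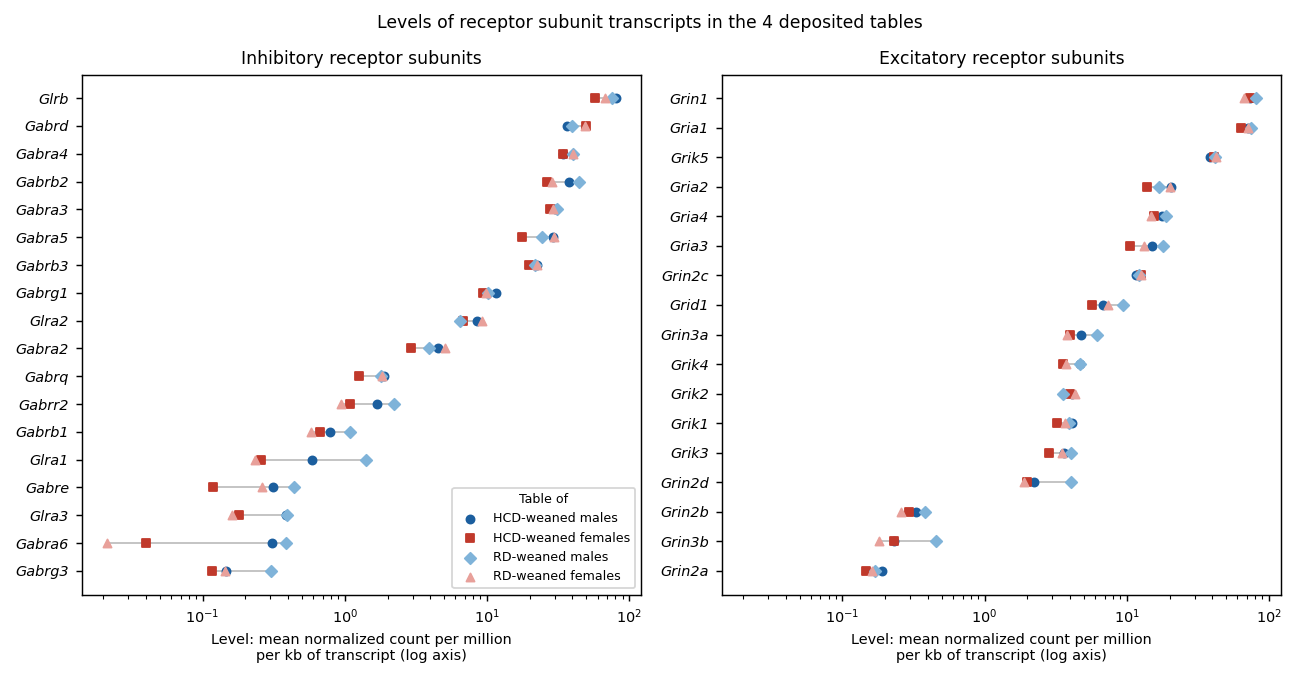
Normalized CPM per kilobase of transcript (horizontal log axis) of 18 inhibitory (left) and 17 excitatory (right) subunit genes in the 4 deposited tables, ordered by level. Glrb (58.1 to 80.6) leads the inhibitory side in each table, Grin1 (66.6 to 81.0) and Gria1 (63.4 to 75.3) are the highest excitatory genes, and the spread over tables is widest for low genes such as Gabra6 (0.0213 to 0.389).

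Fold changes ran with transcript length in several tables. Across all genes with a length, Spearman's rho between the authors' Wald statistic and length in the authors' deposited tables was -0.545 in males and -0.439 in females weaned onto HCD, and 0.082 and -0.220 in males and females weaned onto RD. Over the subunit genes it was -0.547 (n = 38), -0.427 (n = 37), -0.151 (n = 34) and -0.076 (n = 34). These are correlations across genes of the same libraries and carry no p. The subunit genes are long, with a median transcript of 4919 nt against 3377 nt for all genes in HCD-weaned males, and the excitatory genes (median 5633 nt) are longer than the inhibitory (4074 nt). With the smooth trend in length and GC content removed, the medians were -0.17 for inhibitory and -0.12 for excitatory genes in HCD-weaned males, and 0.04 and 0.07 in HCD-weaned females, where the sign turned. After this step Gabra6 in HCD-weaned males passed the adjusted test on the authors' values as well (1.27, adjusted p = 0.0456). Grin2b moved from -0.95 to -0.45 and Gria2 from -0.71 to -0.20 in HCD-weaned males.

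**Figure D5:**
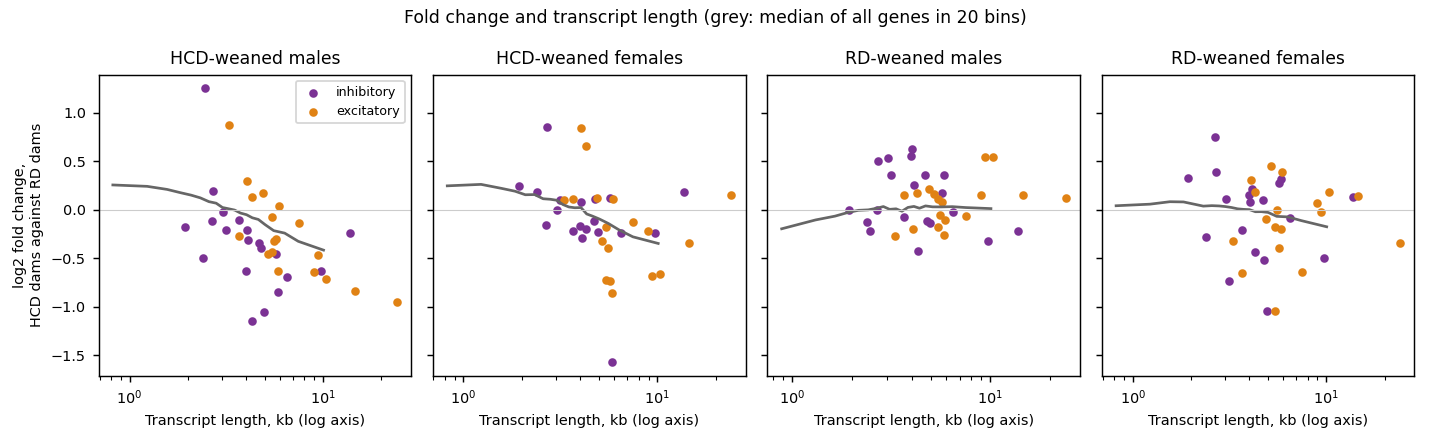
Log2 fold change (vertical axis) against transcript length in kilobases (horizontal log axis) for inhibitory (purple) and excitatory (orange) subunit genes in the 4 deposited tables, with a grey line through the medians of all genes in 20 bins of length. In HCD-weaned males the line runs from 0.26 in the shortest bin to -0.42 in the longest, and most subunit genes lie in the right part of the plot.

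Genes that act around these receptors were followed in 9 lists with 113 symbols in all. The lists cover the supply and removal of the transmitters, GABA-B and metabotropic glutamate receptors, chloride transport, scaffolds and auxiliary proteins. Their values are given without removal of the trend in length and GC content. Over all genes rho with length was -0.545 in HCD-weaned males and -0.439 in HCD-weaned females, and its part in the list values was not tested. In HCD-weaned males 34 of 111 measured genes were above 0 and 77 below (median -0.16), beside 51.1% of all genes below 0. None was called by the authors' DESeq Wald test (0.163% of all genes), with 1 higher and 11 lower at an unadjusted p under 0.05 (8.14%). The largest statistics in the authors' deposited table were those of Grm5, the metabotropic receptor mGluR5, at -0.90 ± 0.30 (adjusted p = 0.332), and Cacng2, the AMPA receptor partner stargazin, at -0.71 ± 0.26 (adjusted p = 0.422). In HCD-weaned females 35 of 111 were above 0 and 76 below (median -0.18), beside 45.6% of all genes below 0. Of these 7 were called, all lower, beside 1.52% of all genes, and 6 were higher and 21 lower at an unadjusted p under 0.05 (13.3%). By the authors' deposited values they were Trak2, an adaptor in the transport of GABA-A receptors and mitochondria, at -0.83 ± 0.21 (adjusted p = 0.0150), Grm5 at -0.91 ± 0.26 (adjusted p = 0.0372), Frrs1l, which helps assemble AMPA receptors, at -1.34 ± 0.33 (adjusted p = 0.0123), and 4 scaffold genes of excitatory synapses. In the authors' deposited table the scaffold genes were Dlg2 (PSD-93) at -1.06 ± 0.25 (adjusted p = 0.00795), Shank1 at -1.25 ± 0.37 (adjusted p = 0.0468), Shank2 at -1.49 ± 0.42 (adjusted p = 0.0390) and Shank3 at -1.08 ± 0.32 (adjusted p = 0.0480). Of the GABA-B receptor genes, Gabbr2 in the authors' deposited table had -1.26 ± 0.42 (adjusted p = 0.0958 by the DESeq Wald test).

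In RD-weaned males none of the 101 list genes with an adjusted p was called by the authors' DESeq Wald test (0.0851% of all genes), with 2 higher and 3 lower at an unadjusted p under 0.05 (4.30%). Of these Kcnj3, a potassium channel opened through GABA-B receptors, had 0.76 ± 0.35 and Shank1 had -0.89 ± 0.41, each with an adjusted p of 1.00 by the authors' DESeq Wald test. In RD-weaned females 3 of 105 were called, beside 0.346% of all genes, and 8 were higher and 12 lower at an unadjusted p under 0.05 (6.16%). In the authors' deposited table Homer1, a scaffold that links metabotropic glutamate receptors to their partners, was higher, at 0.93 ± 0.22 (adjusted p = 0.0128). Slc6a11, the GABA transporter GAT-3 of astrocytes, was lower, at -0.83 ± 0.21 (adjusted p = 0.0398), as was Cbln1, which bridges presynaptic neurexin and the delta glutamate receptors, at -1.10 ± 0.29 (adjusted p = 0.0479) by the authors' DESeq Wald test. The delta glutamate receptor gene Grid1 had -0.39 ± 0.22 there and was not called. Cbln1 also stands on the fixed list of cerebellum markers, of which 6 of 7 measured were below 0 in this table (median -0.42). The vesicular glutamate transporter genes Slc17a7 and Slc17a6, which also serve as markers of cortex and thalamus, had 0.94 ± 0.28 (adjusted p = 0.109) and -0.78 ± 0.29 (adjusted p = 0.403) in the authors' deposited table.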

How the data were processed

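Poly(A) RNA libraries of hypothalamus were compared by the authors in 4 deposited tables, which are the only files used of 12. DESeq (no version) and the build mm10 stand in the submitters' processing notes. The sources used here do not give aligner, counter or annotation. Per the file headers, the authors' tables give a mean normalized count (a signal of 0 or more), the log2 fold change with its standard error, the Wald statistic (an unbounded score), and the p-value and adjusted p-value as deposited. Genes whose mean lies under 10 have no adjusted p there. In RD-weaned males 1554 further genes with a mean above 10 have none, and in RD-weaned females 342. Gabra4 in RD-weaned males and Gria1 and Grin2d in RD-weaned females are among these. The reason is not given here. The authors' column names are those of a DESeq2 results table. The fold changes look shrunken toward 0, which can make tests of differences conservative.

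The other 8 deposited files hold 48 columns of single libraries whose running numbers match no label, and they were not used. Each table of RD-weaned males has 6 such columns where the labels list 7 samples. The test therefore is the authors' own Wald test, adjusted over each whole table. Depth per library is not given here.

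Gene positions, lengths and overlaps came from the GENCODE mouse annotation of GRCm38 and promoters from RefSeq. Differences between comparisons were scaled by the joint standard error (square root of the 2 squared errors added), with two-sided p-values from the normal distribution and Benjamini-Hochberg adjustment over all genes of both tables. The trend in length and GC content was fitted by splines with 5 terms each over all tested genes. These steps were tested on simulated data. For the differences the simulated errors were drawn from the deposited standard errors. That checks the calculation only, and not whether those standard errors hold in the real data. The receptor genes, 9 pathway lists and 13 marker lists were chosen with earlier results of these data known. Named in full are the genes called in any table, those with the 4 largest Wald statistics per table and side, and the highest and lowest by level. Some genes that these rules name are not reported here, nor drawn by name, though they count in the totals, medians and sums. Of the other pathway lists all called genes are named, and some of the 2 per list and table with the largest statistics. Alternatives were a threshold of 0.10, no filter or a minimum mean of 100, robust scaling, centring, removal of the trend and the turned sign of the RD-weaned tables. Python 3.11.15, pandas 2.3.3, scipy 1.17.1, statsmodels 0.14.6 and patsy 1.0.2 were used.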

Additional observations from a re-analysis of the deposited data

How the results depend on the processing

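The count of 1 called subunit gene in HCD-weaned males became 0 with a minimum mean of 100, which leaves Gabra6 out, and 0 with the Wald statistic over its robust spread. The count of 1 in HCD-weaned females became 2 at an adjusted p under 0.10, by Gabrd. The count of 0 in RD-weaned females became 1 at an adjusted p under 0.10 and 1 with the robust spread, by Gabrq in both (adjusted p = 0.0356 with the robust spread of the authors' Wald statistics). The count of 0 for the difference between HCD-weaned and RD-weaned females became 1 at an adjusted p under 0.10 and 1 with the robust spread, by Gabra2 in both, and 1 with the sign of the RD-weaned table turned, by Gabrd. The causes were not tested. Under the other alternatives run the counts of subunit genes did not change. Over the alternatives run, the inhibitory median ranged from -0.33 to -0.17 in HCD-weaned males, -0.15 to 0.04 in HCD-weaned females, 0.00 to 0.30 in RD-weaned males and -0.02 to 0.12 in RD-weaned females. The excitatory median ranged from -0.31 to -0.12, -0.24 to 0.07, 0.08 to 0.12 and -0.09 to 0.00 in the same order. Removing the trend in length and GC content turned the sign of both medians in HCD-weaned females. Gabra2 in HCD-weaned females was called under every alternative run, with adjusted p from 0.00225 to 0.0394. The inhibitory median of RD-weaned females, 0.10, was -0.02 as a mean weighted by precision.

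The planned fits of edgeR to counts, with a replicate block and without each replicate, need mapped libraries and were not run. No paired analysis was possible because the library columns carry no numbers that match the labels. Low genes such as Gabra6 and Grin3b, at under 1 normalized CPM in HCD-weaned males, have the lowest counts behind their values.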
